A study of Mus musculus with 10 samples.

Results

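Purinergic signalling genes were followed here through 9 members, taken by name from the deposited tables, which hold 30431 rows each. The members are the ATP-gated channels P2rx4 and P2rx7, the G protein-coupled nucleotide receptors P2ry1, P2ry2, P2ry6 and P2ry14, the release channel Panx1, and the ectonucleotidases Entpd1 and Nt5e. All 9 had a row in each of the 3 tables, and all 9 averaged at least 1 CPM (counts scaled to library size). They were measured by RNA sequencing in 10 whole kidney libraries of mice aged 21 days after birth. Wild-type mice (WT) gave 4 libraries. Mice of genotype Pkhd1Cre; Pkd2 F/F (SM) gave 3 libraries, and mice that also carried miR-21null (DM) gave 3. Pkhd1Cre is known to act mainly in collecting duct epithelium. By genotype the SM and DM kidneys share a Pkd2 deletion, and the cells in which it took place were not measured here. No group was labelled miR-21null with Pkd2 intact, and the sources used here do not say whether the WT mice carried the floxed allele or the Cre.

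Cells release ATP and UTP when they are stretched, injured or dying, in part through pannexin channels. Outside the cell, P2X channels let in cations when ATP binds, and P2Y receptors couple to G proteins in response to ATP, ADP, UTP, UDP or UDP-sugars. Entpd1 (CD39) degrades ATP and ADP to AMP, and Nt5e (CD73) turns AMP into adenosine, which acts on its own receptors. In the kidney, tubule cells use these signals to adjust salt and water transport, and ATP collects in the fluid of cysts.

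The deposited tables hold the authors' comparisons and no value for a single library, so levels are given per group and the spread between libraries is seen only through the standard error (SE) that the test implies, meant by SE throughout. Each table gives a log2 fold change, its p and its adjusted p from edgeR's likelihood ratio test, and a gene is said to have risen or fallen where the adjusted p was below 0.05. Nothing in the labels ties libraries to separate animals beyond a number in each title, so the p-values measure only the spread between these libraries, which may be technical. Depth per library is unknown. Pkd2 itself stood at -0.41 (SE 0.20, adjusted p = 0.179) in SM over WT in the authors' deposited table from edgeR. In DM over WT it stood at -0.49 (SE 0.20, adjusted p = 0.0838 from edgeR), and neither value passed. These whole-kidney values do not show in which cells Pkd2 was deleted. Proximal tubule markers, which should be abundant in kidney, had a summed level of 14481 CPM in WT.

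In SM kidneys 5 of the 9 purinergic genes rose over WT and 0 fell. In the authors' deposited SM table against WT, Panx1, Entpd1, P2ry6, P2rx7 and P2ry14 rose, and P2rx4, P2ry1, P2ry2 and Nt5e did not pass. The share of members called, 55.6%, stands beside 14.0% of all 30431 rows called in that table, 7.87% higher and 6.09% lower. Among the 15135 rows averaging 1 CPM or more, 21.6% were called. The members' median log2 fold change was 0.76, against 0.00 over all rows.

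**Figure D1:**
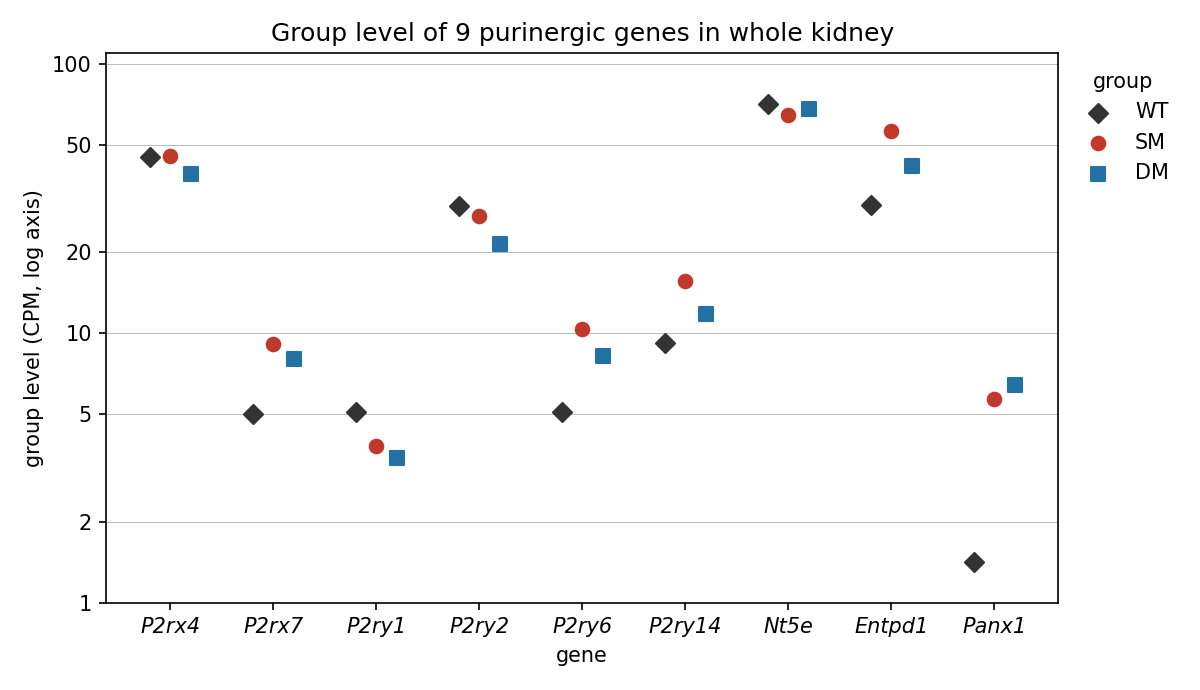
Group level of each of the 9 genes in CPM (log axis) for WT (diamonds), SM (circles) and DM (squares), computed from the deposited average and fold changes, with no error per group. Panx1 goes from 1.41 CPM in WT to 5.70 in SM and 6.43 in DM, while Nt5e stays between 64.6 and 71.0 CPM.

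Panx1 encodes pannexin 1, a membrane channel through which ATP leaves the cell. It lies on chromosome 9 (15002128 to 15045478, GRCm38). Its computed level was 1.41 CPM in WT, 5.70 CPM in SM and 6.43 CPM in DM. Both mutant groups were thus above WT, by 4.06-fold and 4.57-fold. In the authors' deposited tables the log2 fold change was 2.02 (SE 0.34, adjusted p = 2.26e-07 from edgeR) in SM over WT and 2.19 (SE 0.34, adjusted p = 1.37e-08) in DM over WT. Between DM and SM it was 0.17, with a 95% interval of -0.51 to 0.86 and an adjusted p of 1 in the authors' deposited table. The order was DM, SM, WT, and the first pair did not differ beyond the error.

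Among the ATP-gated channels, P2rx7 rose in SM and P2rx4 did not pass. P2rx7 is a receptor of immune and epithelial cells that opens at high ATP and is known to activate the NLRP3 inflammasome. Its computed level was 5.00 CPM in WT, 9.11 CPM in SM and 8.05 CPM in DM. The authors' deposited table gave 0.87 (SE 0.29, adjusted p = 0.0273 from edgeR) in SM over WT. In DM over WT it gave 0.69 (SE 0.29, adjusted p = 0.106), which did not pass. P2rx4, which opens at lower ATP and is widely expressed, had levels of 45.1 CPM in WT, 45.7 CPM in SM and 39.2 CPM in DM. Its log2 fold change in SM over WT was 0.02, and the 95% interval of -0.39 to 0.42 bounds the difference in the authors' deposited table. The genes are neighbours on the plus strand of chromosome 5, P2rx7 at 122643911 to 122691432 and P2rx4 at 122707544 to 122729738, with 16.1 kb between them. Whether their fold changes differ from each other was not tested.

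Of the P2Y receptors, the UDP receptor P2ry6 and the UDP-glucose receptor P2ry14 rose in SM, while the ADP receptor P2ry1 and the ATP and UTP receptor P2ry2 did not pass in any comparison. P2ry6 had computed levels of 5.12 CPM in WT, 10.4 CPM in SM and 8.21 CPM in DM. In the authors' deposited table its log2 fold change in SM over WT was 1.02 (SE 0.32, adjusted p = 0.0160 from edgeR). P2ry14, known in intercalated cells of the collecting duct as well as in immune cells, had 9.24 CPM in WT, 15.7 CPM in SM and 11.8 CPM in DM. Its log2 fold change was 0.76 (SE 0.25, adjusted p = 0.0181) in the authors' deposited SM table against WT from edgeR. In DM over WT the authors' deposited table gave 0.68 (SE 0.32) for P2ry6 and 0.35 (SE 0.25) for P2ry14, with adjusted p of 0.166 and 0.443.

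P2ry2, the main P2Y receptor through which luminal ATP is known to restrain sodium and water uptake in the collecting duct, had 29.6 CPM in WT, 27.3 CPM in SM and 21.5 CPM in DM. Its 95% intervals were -0.56 to 0.33 in SM over WT and -0.90 to -0.01 in DM over WT, from the authors' deposited tables. P2ry1 had 5.12 CPM in WT, 3.81 CPM in SM and 3.43 CPM in DM. It stood at -0.43 (SE 0.29, adjusted p = 0.414 from edgeR) in SM over WT and at -0.58 (SE 0.28, adjusted p = 0.192) in DM over WT in the authors' deposited tables. Both genes were thus highest in WT and lowest in DM, with no neighbouring groups apart by the test. P2ry2 (100996568 to 101012866) and P2ry6 (100937630 to 100974649) are neighbours on the minus strand of chromosome 7, with 21.9 kb between them.

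P2ry14 lies on the minus strand of chromosome 3 (59113855 to 59153618), inside Med12l (59005825 to 59318682), which is on the plus strand. The libraries were made with a stranded kit per the labels' protocols. The sources used here do not say whether the authors' counting used strand, so reads of the 2 genes may not be fully apart. Med12l stood at -0.25 (SE 0.31, adjusted p = 0.775 from edgeR) in SM over WT and at -0.36 (SE 0.30, adjusted p = 0.573) in DM over WT in the authors' deposited tables. Its values thus did not pass in either table.

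Of the ectonucleotidase members, 1 of 2 passed. Entpd1, which removes ATP and ADP and is known in endothelium, macrophages and regulatory T cells, rose in SM. It lies on chromosome 19 (40612366 to 40741602), and its levels were 30.1 CPM in WT, 56.4 CPM in SM and 41.9 CPM in DM. The authors' deposited table gave 0.91 (SE 0.23, adjusted p = 0.00133 from edgeR) in SM over WT and the table of DM against WT gave 0.48 (SE 0.23, adjusted p = 0.174). Nt5e, known in proximal tubule and in cortical fibroblasts, lies on chromosome 9 (88327197 to 88372092) and had 71.0 CPM in WT, 64.6 CPM in SM and 68.0 CPM in DM. Its 95% interval in SM over WT was -0.49 to 0.21, and in DM over WT -0.41 to 0.29, in the authors' deposited tables. A change of Nt5e as large as the value of Entpd1 in SM lies outside both intervals.

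Levels can be set against each other between genes only per length. Per kb of exon annotated in GENCODE, Nt5e (8.25 CPM per kb), P2ry2 (7.53), P2rx4 (6.42) and Entpd1 (5.39) led in WT. P2ry6 (1.77), P2ry1 (1.19), P2rx7 (0.837), P2ry14 (0.835) and Panx1 (0.233) were lower. In SM, Entpd1 had the highest level per length of the 9 genes, at 10.1 CPM per kb, ahead of Nt5e at 7.51, and Panx1 stood at 0.946, beside P2ry1 at 0.888. These levels have no error of their own, and the order of genes that lie close together is not tested.

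**Figure D2:**
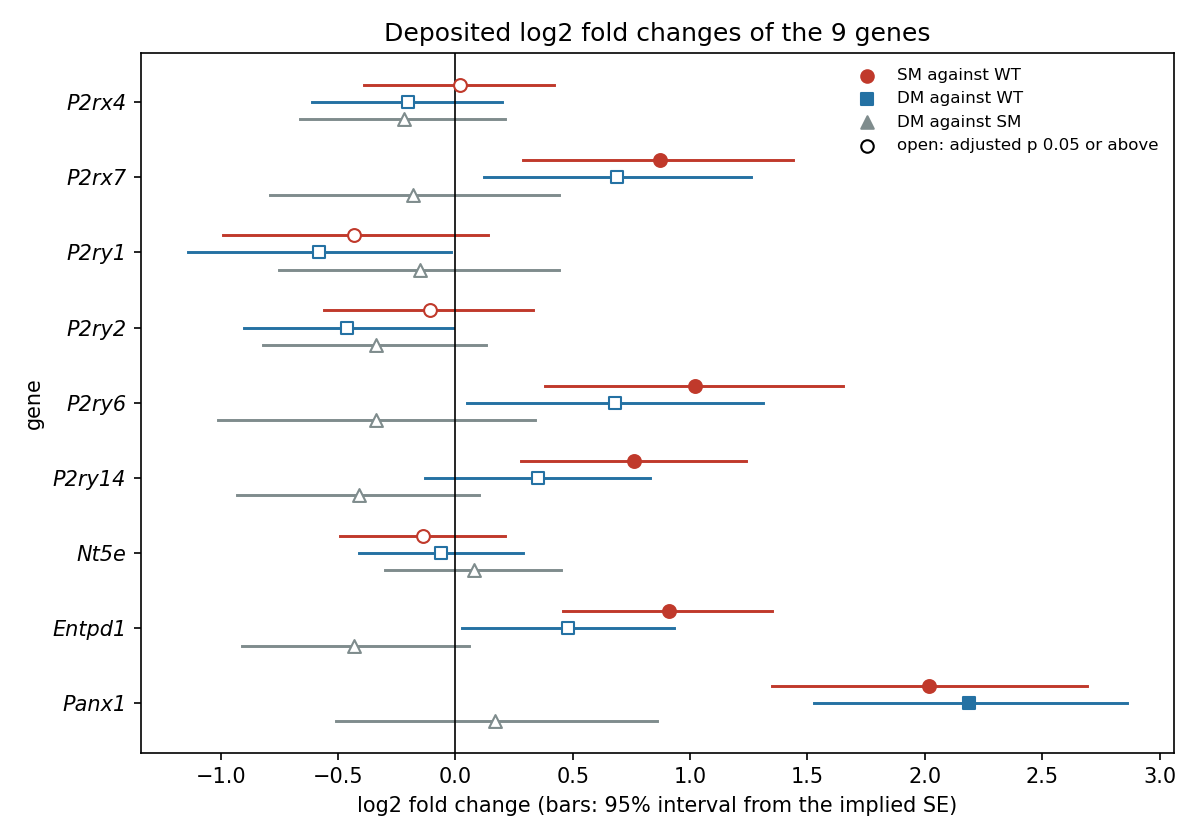
Deposited log2 fold change of each gene in the 3 comparisons, with 95% intervals from the SE as bars. Filled symbols have an adjusted p below 0.05. Panx1 is filled in both comparisons with WT, P2rx7, P2ry6, P2ry14 and Entpd1 are filled in SM over WT, and no triangle of DM against SM is filled.

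When miR-21 was missing as well, 1 of the 9 genes rose over WT and 0 fell. That gene was Panx1 in the authors' deposited DM table against WT. The share of members, 11.1%, is near that of all rows called in the table, 13.5%, of which 7.55% of rows were higher and 5.92% lower. Among rows averaging 1 CPM or more, 19.8% were called. Another 5 members had an unadjusted p below 0.05 and did not pass: P2rx7, P2ry6 and Entpd1 on the higher side and P2ry1 and P2ry2 on the lower side. With Panx1 these are 6 of 9, beside 23.3% of all rows with such a p. Among rows averaging 1 CPM or more the share was 31.4%. DM against WT and SM against WT share their WT libraries.

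The direct comparison of DM with SM called 0 of the 9 genes in the authors' deposited table from edgeR's likelihood ratio test, and 0 had an unadjusted p below 0.05. Among all rows the share called there was 0.0789%, 0.0559% higher and 0.0230% lower. An unadjusted p below 0.05 was seen in 3.75% of all rows and in 3.01% of those averaging 1 CPM or more. The count of 0 of 9 lies near these shares. So the members that passed in SM and not in DM were not shown to differ between the mutant groups. Entpd1 came closest, at -0.43 (SE 0.25, 95% interval -0.91 to 0.06, unadjusted p 0.0829 and adjusted p = 1 from edgeR in the authors' deposited table). P2ry14 followed at -0.41 (95% interval -0.93 to 0.10) and P2ry2 at -0.34 (95% interval -0.82 to 0.13) in the authors' deposited table. The log2 fold change was below 0 for 7 of the 9 members, and 49.6% of the rows averaging 1 CPM or more were below 0. The members above 0 were Panx1 at 0.17 and Nt5e at 0.08.

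The miR-21 seed match was searched in the members' longest annotated 3′ UTR, because DM differs from SM by loss of this miRNA. The mature miRNA is shown with its seed, bases 2 to 8, in capitals, and the sites are shown with the match to that seed in capitals, from the RefSeq miRNA table and the GENCODE transcripts on GRCm38.
miR-21a-5p: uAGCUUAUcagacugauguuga
Panx1: agcattcagtatATAAGCTaagttaattct
Nt5e: acaagtcttatgATAAGCTaagcagaaagg

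Panx1 and Nt5e each held 1 match, at chr9:15002813-15002819 on the minus strand and chr9:88370836-88370842 on the plus strand. In both, the match ATAAGCT was followed by an A. The other 7 members held 0 matches in 3′ UTRs of 534 to 2985 bases. The word is present in 7.50% of the longest 3′ UTRs of 21103 protein-coding genes, and in 19.4% of those within 10% of the length of the Panx1 UTR (4010 bases). For the length of the Nt5e UTR (1775 bases) the share was 8.86%. The members with a match are the ones above 0 in DM against SM, a pattern seen after the values were known and not tested, and neither value passed. Over rows averaging 1 CPM or more, the median log2 fold change in DM against SM was -0.015 for the 1092 genes with the word and -0.004 for the 11728 without it. A match is a description of the sequence and does not show binding.

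Promoters of the members that rose in SM are shown, from 250 bases before to 50 after an annotated start, as RefSeq gives them on GRCm38.p6. Capitals mark matches, on either strand, to an AP-1 word (TGANTCA) or an ETS-type word (GAGGAAG), both known to occur at genes of activated and myeloid cells. Also searched were STAT (TTCCNGGAA), CRE (TGACGTCA) and kappa B words. The table matched 8 of the 9 members with 14 promoters, and P2ry6 was not among them. Where a gene has several starts, the one shown holds a match.
Panx1, chr9:15045429-15045728, minus strand: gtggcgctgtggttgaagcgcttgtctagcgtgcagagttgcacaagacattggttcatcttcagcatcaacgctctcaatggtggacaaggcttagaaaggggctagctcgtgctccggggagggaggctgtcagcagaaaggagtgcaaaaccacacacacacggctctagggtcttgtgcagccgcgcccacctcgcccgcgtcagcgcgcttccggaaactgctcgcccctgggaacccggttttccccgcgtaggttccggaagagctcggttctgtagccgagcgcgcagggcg
Entpd1, chr19:40659520-40659819, plus strand: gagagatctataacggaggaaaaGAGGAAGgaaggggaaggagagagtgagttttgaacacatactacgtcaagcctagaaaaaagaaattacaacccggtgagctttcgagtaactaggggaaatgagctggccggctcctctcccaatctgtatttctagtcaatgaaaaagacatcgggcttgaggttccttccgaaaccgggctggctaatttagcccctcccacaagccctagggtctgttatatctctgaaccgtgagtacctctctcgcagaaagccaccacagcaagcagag
P2rx7, chr5:122643677-122643976, plus strand: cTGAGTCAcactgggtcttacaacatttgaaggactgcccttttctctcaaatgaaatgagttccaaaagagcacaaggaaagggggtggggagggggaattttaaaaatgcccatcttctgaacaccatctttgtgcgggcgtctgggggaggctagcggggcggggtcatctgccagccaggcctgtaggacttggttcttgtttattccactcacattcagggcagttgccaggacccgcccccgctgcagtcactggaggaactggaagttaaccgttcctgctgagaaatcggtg
P2ry14, chr3:59153443-59153742, minus strand: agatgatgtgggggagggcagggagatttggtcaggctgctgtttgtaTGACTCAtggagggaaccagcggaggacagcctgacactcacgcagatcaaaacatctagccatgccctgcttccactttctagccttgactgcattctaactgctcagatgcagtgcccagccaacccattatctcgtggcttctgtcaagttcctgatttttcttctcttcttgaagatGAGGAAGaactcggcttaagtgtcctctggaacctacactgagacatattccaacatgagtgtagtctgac

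The AP-1 word stood in 3 of the 14 member promoters, belonging to P2rx7 and P2ry14, and in 7.81% of all 32851 promoters. The ETS word stood in 3 of the 14, belonging to Entpd1, P2rx7 and P2ry14, and in 13.6% of all. Several of the 14 are starts of the same gene, P2ry14 above all. Counted by gene, the AP-1 word was in 2 of 8 and the ETS word in 3 of 8. The share by gene over all promoters was not computed. In the P2ry14 promoter shown, the AP-1 word began 202 bases and the ETS word 21 bases before the start. Panx1, with the largest fold of the members, held none of the 5 words in its 1 promoter. Other spellings of the ETS-type word and of the other words were not searched. The STAT, CRE and kappa B words were in 0 of the 14 member promoters and in 1.15%, 1.79% and 8.46% of all promoters. The matches did not overlap each other, and the absence of a word says only that its letters are not in this window.

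Around the 9 members, 52 other genes of the pathway were read from 7 lists. In SM over WT, the authors' deposited table had 7 higher and 8 lower past the threshold, with a median log2 fold change of -0.06. In DM over WT, 8 rose and 5 fell, with a median of -0.05. In DM against SM 0 passed and 0 had an unadjusted p below 0.05 (edgeR), beside 3.75% of all rows with such a p. The shares called, 28.8% in SM and 25.0% in DM over WT, stand beside 14.0% and 13.5% of all rows. Among rows averaging 1 CPM or more, 21.6% and 19.8% were called. These shares of rows also stand beside the counts of each list below. The p-values were also adjusted over rows averaging 1 CPM or more, which tests 35 of the 52. The split was then 4 higher and 10 lower in SM and 7 higher and 8 lower in DM. This filter uses the average over all libraries. P2ry12, P2ry13, Nlrp3, Casp1 and Slc17a9 reach it only through SM and DM, with 0.258 to 0.717 CPM in WT. The higher counts of this split thus depend in part on the filter. Over all rows, the genes that rose came from the lists of receptors and inflammasome genes, apart from Slc17a9. The genes that fell came from the lists of other ectonucleotidases and of adenosine enzymes and nucleoside transporters, apart from Abcc6. Among them, P2ry10 and Enpp2 are better known for lipid signals, as given below.

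Among the other P2Y receptors, P2ry12 and P2ry13, ADP receptors of microglia and macrophages, rose in both comparisons with WT. Both were below 1 CPM in WT and averaged above 1 CPM only through SM and DM. P2ry12 had computed levels of 0.356 CPM in WT, 2.60 CPM in SM and 1.71 CPM in DM. The authors' deposited tables gave it 2.87 (SE 0.42, adjusted p = 1.0e-09 from edgeR) in SM over WT and 2.27 (SE 0.42, adjusted p = 2.99e-06) in DM over WT. P2ry13 had 0.258 CPM in WT, 2.17 CPM in SM and 1.70 CPM in DM. Its deposited values were 3.07 (SE 0.49) in SM and 2.72 (SE 0.49) in DM over WT in the authors' deposited tables. Both also lie inside Med12l on the opposite strand, P2ry13 at 59207892 to 59210882 and P2ry12 at 59216272 to 59262871 on chromosome 3. P2ry10, a receptor of lymphocytes for lysophosphatidylserine, passed in SM at 1.32 (SE 0.48, adjusted p = 0.0482) by the authors' deposited table from edgeR and stood at 1.25 (adjusted p = 0.0594) in DM. P2ry4 did not pass, at -0.99 (SE 0.87) in SM over WT and an average log2 CPM of -2.99.

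The other P2X receptors had 0 of 5 members called against WT in either deposited table. An unadjusted p below 0.05 was seen for 1 of them in SM and 2 in DM. Among all rows, 23.4% in SM and 23.3% in DM had such a p. P2rx5 stood at -0.77 (SE 0.30, adjusted p = 0.0688) in SM and -0.62 (SE 0.30) in DM, and P2rx1 at -0.19 and -0.08, in the authors' deposited tables from edgeR.

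Of the adenosine receptors, 2 of 4 rose in SM and 1 of 4 in DM in the authors' deposited tables. Adora1, the receptor by which adenosine constricts the afferent arteriole, had 27.9 CPM in WT, 44.4 CPM in SM and 33.9 CPM in DM. It stood at 0.67 (SE 0.24, adjusted p = 0.0405) in SM and at 0.28 (adjusted p = 0.578) in DM over WT in the authors' deposited tables from edgeR. Adora3 passed in both, with adjusted p of 8.04e-06 and 8.67e-06 in the authors' deposited tables from edgeR. Its computed WT level, 0.0146 CPM, is below that of a row at the tables' lowest average, so its fold depends on the authors' prior count and is not given as a size. Adora2a stood at -0.10 and 0.03, and Adora2b at 0.42 and 0.54, with no call in either of the authors' deposited tables.

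Of the release genes other than Panx1, 1 of 10 fell in SM and 1 of 10 rose in DM by the authors' deposited tables. Abcc6, a transporter whose activity leads to ATP release and pyrophosphate formation, fell by 1.10 (SE 0.33, adjusted p = 0.00865) in SM and stood at -0.83 (adjusted p = 0.0676) in DM over WT in the authors' deposited tables from edgeR. Slc17a9, which loads ATP into vesicles, passed in DM at 0.97 (SE 0.36, adjusted p = 0.0497) and stood at 0.70 (adjusted p = 0.232) in SM in the authors' deposited tables from edgeR. The most abundant of this list, Ano6 and the volume-regulated channel subunit Lrrc8a, stood at 0.27 and -0.10 in SM over WT and did not pass.

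The list of other ectonucleotidases had calls on the lower side alone. In SM over WT, 4 of 13 fell and 0 rose, and in DM over WT 3 of 13 fell and 0 rose, in the authors' deposited tables. The shares, 30.8% and 23.1%, stand beside 21.6% and 19.8% called in either direction among rows averaging 1 CPM or more. Entpd8, an ATP- and ADP-degrading enzyme of apical membranes, had 15.5 CPM in WT, 5.05 CPM in SM and 7.14 CPM in DM. It fell by 1.62 (SE 0.28, adjusted p = 6.94e-07) in SM and by 1.12 (SE 0.28, adjusted p = 0.00103) in DM in the authors' deposited tables from edgeR. Alpl, tissue-nonspecific alkaline phosphatase, had 557 CPM in WT, 321 CPM in SM and 310 CPM in DM. Its deposited values were -0.79 (SE 0.25) and -0.84 (SE 0.25), both past the threshold in the authors' deposited tables. Enpp2, better known as autotaxin, which makes lysophosphatidic acid, fell by 1.17 (SE 0.26) in SM and by 1.29 (SE 0.26) in DM in the authors' deposited tables. Entpd5, a UDP-degrading enzyme of the endoplasmic reticulum and so not a surface enzyme, passed in SM at -0.82 (SE 0.28, adjusted p = 0.0325) and stood at -0.75 (adjusted p = 0.0600) in DM in the authors' deposited tables from edgeR. Enpp1 stood at -0.36 and -0.47 and Bst1, an NAD-degrading enzyme, at 0.56 and 0.59, with no call. Entpd4 was listed at the lowest average of the tables, and it has a near-identical copy, so its value cannot be read.

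Genes that take up or convert adenosine fell for 3 of 10 in SM and 2 of 10 in DM, and 0 rose, in the authors' deposited tables. Slc28a1, the concentrative nucleoside transporter of the proximal tubule, had 18.0 CPM in WT, 6.78 CPM in SM and 7.25 CPM in DM. It fell by 1.41 (SE 0.32, adjusted p = 1.94e-04) in SM and by 1.31 (SE 0.31, adjusted p = 6.06e-04) in DM in the authors' deposited tables from edgeR. Adk, which returns adenosine to AMP inside the cell, passed in SM at -0.75 (SE 0.25, adjusted p = 0.0262) and stood at -0.66 (adjusted p = 0.0597) in DM in the authors' deposited tables from edgeR. The equilibrative transporter Slc29a2 passed in SM at -0.70 (SE 0.26), and Slc29a1 passed in DM at -0.49 (SE 0.18) after -0.47 (adjusted p = 0.0547) in SM, in the authors' deposited tables from edgeR. Pnp and Slc29a3 stood at -0.23 and -0.07 in SM and did not pass.

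Of 6 inflammasome genes that act after P2X7, 2 rose in SM and 4 in DM in the authors' deposited tables. Several were low: Nlrp3 had 0.437 CPM, Casp1 0.522 CPM and Il1b 0.394 CPM in WT. Nlrp3 and Casp1 averaged above 1 CPM only through SM and DM, and Il1b averaged below 1 CPM. Nlrp3, the sensor, stood at 1.93 (SE 0.44, adjusted p = 3.18e-04) in SM and at 2.16 (SE 0.44, adjusted p = 3.07e-05) in DM over WT in the authors' deposited tables from edgeR. Il1b, the cytokine it releases, stood at 1.77 (SE 0.49) and 1.71 (SE 0.48), past the threshold in both. Casp1 and Gsdmd passed in DM at 1.98 (SE 0.51) and 1.13 (SE 0.40) and stood at 1.27 and 0.36 in SM in the authors' deposited tables. For both genes DM against SM had an adjusted p of 1 in the authors' deposited table from edgeR, so a difference between the mutant groups was not shown. Pycard and Il18 stood at 0.52 and 0.49 in SM and did not pass.

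**Figure D3:**
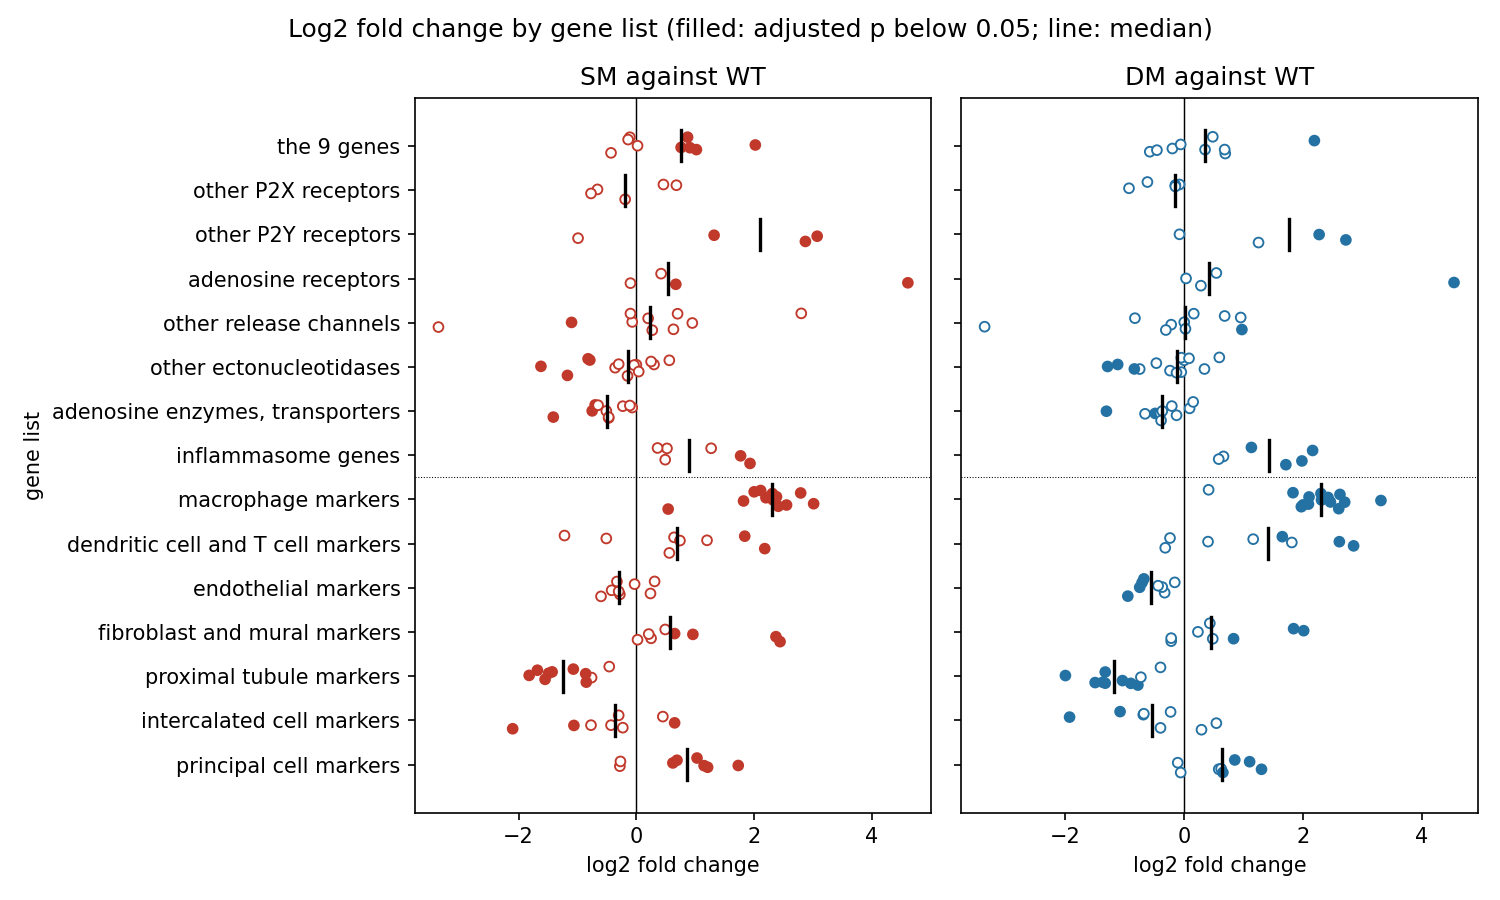
Deposited log2 fold change of every gene of each list in SM over WT (left) and DM against WT (right). Each point is a gene, filled where the adjusted p is below 0.05, and the vertical line is the list's median. Macrophage markers lie at a median of 2.31 and 2.30, and the 9 purinergic genes at 0.76 and 0.35.

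Markers of other cell types also differed between the groups. Macrophage markers rose for 14 of 14 in SM and 13 of 14 in DM, from 0.54 for Csf1r to 3.01 for Cd14 in SM and from 0.41 for Csf1r to 3.31 for Aif1 in DM, in the authors' deposited tables. Csf1r was close to the threshold in SM (adjusted p = 0.0498 from edgeR in the authors' deposited table). Their summed level was 154 CPM in WT, 568 CPM in SM and 582 CPM in DM, with no marker at the lowest level. P2rx7, P2ry6, P2ry14, Entpd1, P2ry12, P2ry13, Nlrp3 and Il1b are known to be expressed in myeloid cells, and the part of these cells in their values was not tested. In whole tissue, more cells of a type and more RNA per cell cannot be told apart.

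Among dendritic and T cell markers 2 of 8 rose in SM and 3 of 8 in DM, with summed levels of 30.7 CPM in WT, 28.1 CPM in SM and 33.9 CPM in DM. Zbtb46 alone, which did not pass, made up 22.5, 15.8 and 18.0 CPM of these sums, so they say little of the other 7 markers. Itgax stood highest of those averaging above 1 CPM, at 2.18 and 2.61, and Cd8a stood lowest in SM at -1.22, in the authors' deposited tables. The level of Itgax was 0.843 CPM in WT, 3.82 CPM in SM and 5.14 CPM in DM. Endothelial markers, relevant to Entpd1, had 0 of 8 called in SM and 4 of 8 lower in DM. In SM, 2 had an unadjusted p below 0.05 (edgeR), beside 23.4% of all rows. The endothelial markers had a summed level of 854 CPM in WT, 779 CPM in SM and 594 CPM in DM. Emcn was the lowest of them, at -0.60 and -0.95 in the authors' deposited tables. Fibroblast and mural markers rose for 4 of 8 in SM and 3 of 8 in DM, with summed levels of 699, 1821 and 1352 CPM in WT, SM and DM. Much of the sums came from Acta2 (93.7, 508 and 335 CPM) and Col1a1 (113, 585 and 456 CPM), and the list's median log2 fold change was 0.57 in SM and 0.45 in DM. The mesenchymal receptors Pdgfra and Pdgfrb did not pass, at 0.21 and 0.25 in SM and both at -0.22 in DM in the authors' deposited tables.

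Intercalated cell markers, relevant to P2ry14, had 1 of 8 higher and 2 of 8 lower in SM and 3 of 8 lower in DM, from -2.10 for Slc4a1 to 0.65 for Rhcg in SM in the authors' deposited table. Their summed level was 634 CPM in WT, 552 CPM in SM and 521 CPM in DM, of which Rhcg made up 169, 265 and 246 CPM. Principal cell markers rose for 6 of 8 in SM and 4 of 8 in DM, with summed levels of 899, 1392 and 1253 CPM in WT, SM and DM. Of these sums, Aqp4 made up 74.2, 246 and 183 CPM and Hsd11b2 151, 350 and 272 CPM. Aqp2 and Aqp3 did not pass, at -0.28 and -0.27 in SM and at -0.06 and -0.11 in DM over WT in the authors' deposited tables. Proximal tubule markers fell for 8 of 10 in each comparison with WT, down to -1.82 and -2.00 for Gatm, and summed to 14481 CPM in WT, 6553 CPM in SM and 6878 CPM in DM. Alpl, Entpd8, Entpd5, Adk and Slc28a1 are known in proximal tubule, and the part of lower proximal tubule RNA in their values was not tested. Nt5e, known in the same segment, did not pass.

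Genes with the most similar pair of log2 fold changes against WT were looked up among 14036 other named rows averaging 1 CPM or more, a likeness that rests on 3 group levels. The number of near rows depends on how many rows have changes of that size. The distances of the rows named are below the SE of the members, 0.23 to 0.34 in SM over WT, so their order is not firm. Panx1 had the fewest near rows, with 5 within a distance of 0.1, and the nearest were 2810417H13Rik, Smpdl3b and Tvp23a. P2rx7 had 114 rows within that distance, led by Psd3, Efna2 and Cdt1. Entpd1 had 53, led by Nid1, Greb1 and Abcc4. P2ry6 had 59, led by AI467606, Grhl3 and Ggn, and P2ry14 had 63, led by C1qtnf6, Zfp300 and Lgi4.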

How the data were processed

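The samples were 10 whole kidney libraries, 4 WT, 3 SM and 3 DM, made from total RNA with a stranded kit, per the labels' protocols. Per the submitters' processing notes the build was mm10 and the tools were edgeR 3.2.4, featureCounts, Subread 1.4.6, Cufflinks, TopHat2 2.0.12 and bcl2fastq 1.8.4, with no role stated for each.

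Per the file headers, each deposited row holds an average log2 CPM and, per comparison, a log2 fold change, a likelihood ratio score, its p-value and an adjusted p-value over all 30431 rows. The deposited averages were the same in all 3 tables and the fold changes subtract to each other, so they come from 1 fit of all libraries. The planned test of counts per library could therefore not be run, and the authors' adjusted p below 0.05 was used.

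Computed here were the implied SE (absolute log2 fold change over the root of the score), 95% intervals from it, and group levels in CPM, taking the average as the mean of the libraries. The implied SE was tested on simulated counts for SM against WT, with a single known dispersion and rows averaging at least 1 CPM. Group levels and the coverage of the intervals were not tested in this way. Per-length levels use exon unions of GENCODE M21. Python 3.11.15, pandas 2.3.3 and scipy 1.17.1 were used. Depth per library and normalization factors are unknown, so no counting interval is given. Libraries of a group are treated as replicates.

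Members and lists were chosen with earlier results of these data known, and the 5 promoter words after the values were seen. Named were all 9 members, each other purinergic gene past the threshold in any comparison, up to 2 of the most abundant others per list, the extreme markers of lists, and the 3 nearest patterns per called member. Alternatives were adjustment over rows of at least 1 CPM or over named rows, a threshold of 0.01, a log2 fold change of at least 1, centring on the median, and Benjamini-Yekutieli adjustment.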

Additional observations from a re-analysis of the deposited data

How the results depend on the processing

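Panx1 kept its call in both comparisons with WT under all 6 alternatives, with adjusted p from 1.21e-07 to 2.46e-06 in SM and from 7.22e-09 to 1.50e-07 in DM. The other member calls in SM against WT were less firm. The count of 5 members fell to 2 with a threshold of 0.01, to 2 with a log2 fold change of at least 1 and to 2 with Benjamini-Yekutieli adjustment. Entpd1 passed beside Panx1 under the first and the last of these (adjusted p at most 0.0145), and P2ry6 beside Panx1 under the fold limit. P2rx7, P2ry6 and P2ry14 reached adjusted p of 0.297, 0.174 and 0.198 with Benjamini-Yekutieli adjustment. The count of 15 other purinergic genes called in SM against WT became 9 with a threshold of 0.01 and 8 with Benjamini-Yekutieli adjustment, and that of 13 in DM against WT became 8 with the latter. These settings are stricter by construction. The remaining total counts were within 1.5 times, in DM against SM they were 0 throughout, and no member changed sign. The split by direction moved further: adjusted over rows averaging 1 CPM or more, the other purinergic genes went from 7 higher and 8 lower to 4 and 10 in SM, and from 8 higher and 5 lower to 7 and 8 in DM. That setting leaves out genes averaging below 1 CPM. It keeps P2ry12, P2ry13, Nlrp3, Casp1 and Slc17a9, which reach that average only through SM and DM. No paired analysis was possible because the tables hold no value per library and the numbers in the titles are not shared between groups. Leaving out each replicate in turn could not be run for the same reason, so whether 1 library decides a value is not known.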
